A study of Rattus norvegicus with 10 samples.

Results

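Indomethacin and aspirin were compared in the gastric mucosa of Sprague Dawley rats, feature by feature, with 2 RNA-seq libraries for each drug. These 4 libraries are all those labelled with either drug alone, of 10 in the study. The rats received indomethacin at 48 mg/kg or aspirin at 400 mg/kg by mouth, and mucosa was collected 4 h later. The doses differ, so a difference between the drugs cannot be told apart from a difference between the doses. The 2 control libraries carry the same tissue and strain labels, name no treatment, and are given here as the level without a drug. The remaining libraries, 2 of each kind, came from rats given honokiol (40 mg/kg, intraperitoneal), a plant lignan, with indomethacin following after 30 min, and from rats given diclofenac, another NSAID, at 75 mg/kg. Their time labels differ, since that of the honokiol group has the length of its lead, and sampling at 4 h rests for that group on the general protocol. No age, sex or genotype is given in the labels used here, and the cell type is labelled as epithelial cells. That label could not be checked against marker genes, because the files list Ensembl identifiers without gene names and no identifier matched the table of gene symbols at hand. Features are therefore described by position and exon structure. Apart from the ribosomal RNA positions of the mitochondrial genome, neither a gene name nor a role is given for any of them. No sequence is shown for the same reason. Coordinates are those of the deposited files, for which the sources used here name no genome build.

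Both drugs are non-steroidal anti-inflammatory drugs (NSAIDs). They block the cyclooxygenases, the enzymes that convert arachidonic acid into the precursor of prostaglandins and thromboxane. Aspirin, an ester of salicylic acid, transfers its acetyl group to the enzyme and inactivates it irreversibly, while indomethacin, an indole acetic acid, binds the active site without a covalent bond. In the stomach, prostaglandins sustain mucus and bicarbonate secretion and blood flow, and loss of this protection together with direct contact of an acidic drug with the mucosa is known to cause erosions.

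The indomethacin libraries held 43608370 and 34659858 counts, the aspirin libraries 23892226 and 39513038, and the control libraries 35617694 and 32198888. Across features, replicate libraries correlated at r = 0.981 with indomethacin, 0.973 with aspirin and 0.972 in controls, and no pair of replicates agreed within sampling noise. Reads on the Y chromosome split the groups: indomethacin replicate 1 had 4438 counts on 7 Y-chromosome features and replicate 2 had 2, the aspirin libraries had 0 and 0, and the controls had 3582 and 1. The libraries with honokiol had 3393 and 2733, and those of diclofenac 47 and 0. Thus a library with Y reads stood on the indomethacin side and none on the aspirin side, and values from a fit with a term for Y reads are given with the main results below. The labels do not say whether replicates are separate animals, although the indomethacin pair and the control pair each hold 1 library with Y reads and 1 without. Elsewhere p-values may measure technical spread only. The aspirin and diclofenac files end in 2 empty lines and all other files in 1. The sources used here do not say whether those libraries were also handled apart, and such a difference could not be told apart from the drug.

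With 16346 features tested in a fit over all 10 libraries, 3 differed between indomethacin and aspirin at a Benjamini-Hochberg adjusted p under 0.05 in edgeR's quasi-likelihood test, hereafter called. These were 0.0184% of the features tested, and all 3 were higher with indomethacin. For scale, 127 features (0.777%) were called between indomethacin and control, 0.752% higher and 0.0245% lower with indomethacin. Between aspirin and control 2903 (17.8%) were called, 9.5% higher and 8.26% lower with aspirin. With a term for Y reads the count was 116 for indomethacin and 683 for aspirin. The median size of the log2 difference over all features was 0.38 for indomethacin minus aspirin, 0.26 for indomethacin minus control and 0.52 for aspirin minus control. These comparisons share libraries and are not independent of each other. Between indomethacin and aspirin, 33 features (0.202%) had an adjusted p under 0.1, 18 of them higher and 15 lower with indomethacin. An unadjusted p under 0.05 was found for 3283 (20.1%), 1643 higher and 1640 lower. In 28.3% of features both indomethacin libraries lay above both aspirin libraries, and in 26.2% both lay below. The count of calls depended on the fit. With only the 4 libraries of the 2 groups it was 57 (28 higher, 29 lower), with DESeq2 439 (179 higher, 260 lower), without a filter on low counts 1414 (573 higher, 841 lower), and without aspirin replicate 2 it was 570. With each library's trend with exonic length removed, 5 were called, 3 higher and 2 lower. A term for Y reads left 1 call.

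**Figure D1:**
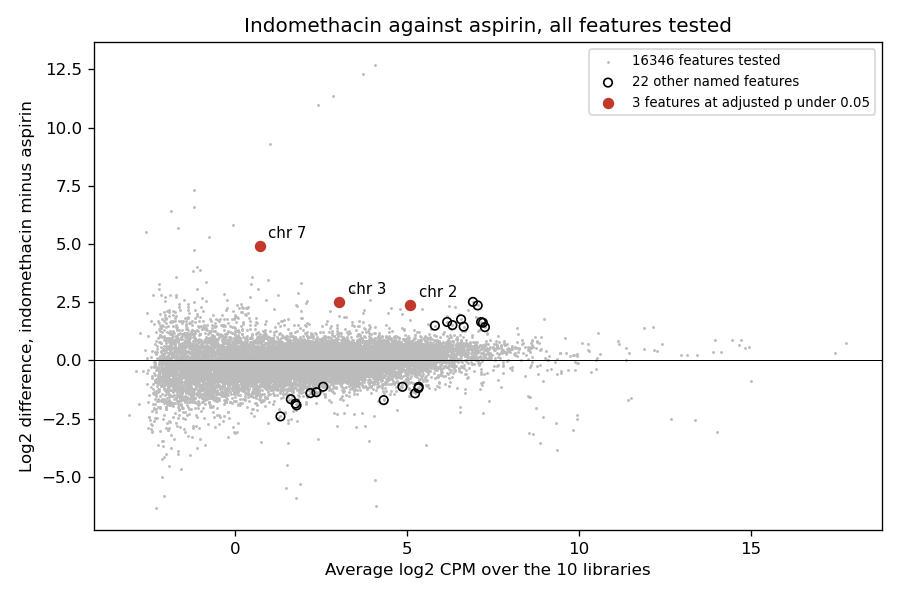
Each grey point is 1 of the 16346 features tested, with its average log2 CPM over the 10 libraries on the x axis and its log2 difference, indomethacin minus aspirin, on the y axis. The 3 called features (red) all lie above 0, the 22 other features taken by the naming rule (open circles) lie on both sides, and the 7 points above 6 other than the one on chromosome 10 named in the text are Y-chromosome features, whose counts came from 1 of the 2 indomethacin libraries.

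The most firmly separated feature was a short single-exon one on chromosome 3, ENSRNOG00000052180 (chr3:75024206-75024479, plus strand, 274 nt). Its TMM-scaled CPM, the counts relative to a common library total after edgeR's scaling, was 13.67 and 10.04 with indomethacin, 2.39 and 1.80 with aspirin, and 16.07 and 12.99 in controls. Both indomethacin libraries thus lay well above both aspirin libraries and near the controls. In mucosal RNA, fewer cells of a type and less RNA per cell cannot be told apart, here and in all that follows. The log2 difference was 2.51 ± 0.25 (SE, n = 2 libraries each; edgeR adjusted p = 0.00756). Against control, the difference was -0.29 with indomethacin (edgeR adjusted p = 0.741) and -2.80 with aspirin (edgeR adjusted p = 0.000846). This feature kept its call under 19 of 20 alternatives, including a term for Y reads (edgeR adjusted p = 0.0215); the exception was the fit on libraries without Y reads alone (edgeR adjusted p = 0.0808), which keeps 1 indomethacin library and 1 control library.

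On chromosome 2, ENSRNOG00000032959 (chr2:243502073-243516532, plus strand, 9 exons, 2023 nt) had 59.99 and 49.99 CPM with indomethacin, 12.6 and 8.85 with aspirin, and 62.8 and 39.1 in controls. It again had control-like levels with indomethacin and low levels with aspirin, and its log2 difference was 2.36 ± 0.28 (edgeR adjusted p = 0.0251). Against control it was 0.11 with indomethacin (edgeR adjusted p = 0.922) and -2.25 with aspirin (edgeR adjusted p = 0.00253). The call was lost with a Y-read term (edgeR adjusted p = 0.0538), without aspirin replicate 1 (0.0917), without indomethacin replicate 1 (0.191) and in libraries without Y reads alone (0.0808). Of the 10 tested features in the megabase around it, 7 were higher with indomethacin and 3 lower, with a median log2 difference of 0.36, and no other was called.

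A feature on chromosome 7 (chr7:14529482-14574361, plus strand, 24 exons, 3890 nt) had another layout. It had 6.11 and 4.29 CPM with indomethacin, 0.331 and 0.0473 with aspirin, and 0.379 and 0.234 in controls, so that only the indomethacin libraries stood out among these groups. In counts, these were 219 and 167 with indomethacin and 9 and 2 with aspirin, a depth-scaled ratio of 32.6 (exact 95% interval 18 to 65.8, counting error only). The log2 difference was 4.92 ± 0.62 (edgeR adjusted p = 0.0301). It rose with indomethacin against control by 4.06 on the log2 scale (edgeR adjusted p = 0.00932), whereas aspirin minus control was -0.86 (edgeR adjusted p = 0.413). The libraries with honokiol before indomethacin had 2.56 and 1.46 CPM and the diclofenac libraries 0.159 and 0.238. The call against aspirin was lost with a Y-read term (edgeR adjusted p = 0.126), without indomethacin replicate 1 (0.209), in libraries without Y reads alone (0.237) and with a stricter filter on low counts (0.0581).

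The naming rule took, in each direction, the 12 features with the smallest unadjusted p among those with no overlap between the drugs' libraries and a mean log2 CPM of 1 or more. Since the rule used this contrast, the differences of these 24 features are a description. Of the 12 higher with indomethacin, 7 lay within 1 megabase of chromosome 9, 2 were short single-exon features of chromosome 12, and the others were the called features of chromosomes 3 and 2 and a further one on chromosome 7. The 12 lower ones were spread over 9 chromosomes, with 3 on chromosome 1, of which 2 lay in neighbouring windows of 1 Mb, and 2 on chromosome 5. The higher ones had a median of 7 exons and 2800 nt of exonic length and the lower ones 14.5 exons and 3560 nt, against 9 exons and 2172 nt over all features tested.

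On chromosome 9, the 12 tested features centred between 4 and 5 Mb all had positive log2 differences. These ran from 0.48 to 1.999 with a median of 1.48, beside a median of 0.02 over all features. Summed over the 12, the level was 1282 and 1120 CPM with indomethacin, 384 and 510 with aspirin, and 1415 and 1268 in controls. The aspirin libraries were therefore far below the other two groups, which were near each other. In 10 of the 12 both indomethacin libraries lay above both aspirin libraries, beside 28.3% of all features, and 6 had an adjusted p under 0.1, beside 0.202%. None was called between the drugs by edgeR (smallest adjusted p = 0.0583), while 10 had an unadjusted p under 0.05, beside 20.1% of all features. The naming rule had chosen 7 of the 12 by this contrast, so shares above those of all features are partly built in. With a Y-read term the 12 differences remained positive with a median of 1.46 (edgeR adjusted p from 0.186 to 0.615). In DESeq2 all 7 of these features that the naming rule took were called, beside 439 of 24106 features with counts. Some of the 24106 had no adjusted p in DESeq2. The rule chose the 7 by this contrast. DESeq2 called all 12 higher and all 12 lower features that the rule took, so this is not particular to chromosome 9. Against control, 11 of the 12 fell with aspirin and 0 were called with indomethacin, beside 8.26% of all features called lower with aspirin. The aspirin libraries are the same in both comparisons.

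The first of them (chr9:4072823-4114974, plus strand, 15 exons, 3580 nt) had 215 and 201 CPM with indomethacin, 63.4 and 72.2 with aspirin, and 239 and 200 in controls (log2 difference 1.62 ± 0.25). An overlapping one (chr9:4081457-4280794, plus strand, 11 exons) had 154 and 128 CPM with indomethacin, 35.7 and 47.2 with aspirin and 151 and 130 in controls (1.76 ± 0.30). Both show aspirin at about the same distance below the rest. Of those on the minus strand, the one at chr9:4152589-4168221 (5 exons) had 216 and 192 CPM with indomethacin, 65.4 and 85.8 with aspirin, and 263 and 222 in controls. A further one at chr9:4654294-4685383 (11 exons) had 121 and 108 CPM with indomethacin, 34.4 and 45.6 with aspirin, and 121 and 112 in controls. The pattern was thus present on both strands. A low-level feature at chr9:4421069-4436601 (7 exons), with 0.390 and 0.848 CPM with indomethacin, 0.294 and 0.166 with aspirin and 0.821 and 0.434 in controls, was the single one of the 12 not called lower with aspirin. In 2 of the 12 the drugs' libraries overlapped, as at chr9:4324211-4327679 (4 exons, 435 nt) with 41.3 and 23.8 CPM with indomethacin and 15.3 and 27.6 with aspirin. Neighbouring features of similar exon number and length may be copies that share reads, so the division of counts among them is uncertain.

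**Figure D2:**
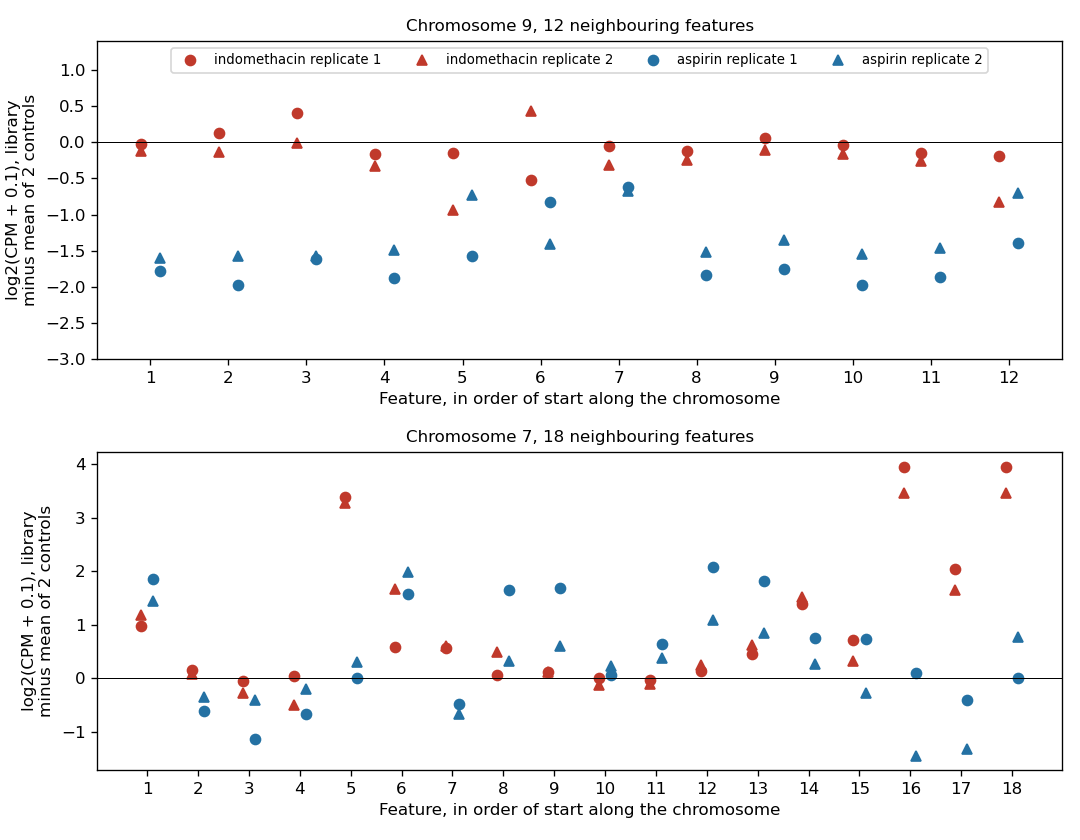
Log2(CPM + 0.1) of each indomethacin and aspirin library minus the mean of the 2 controls (y axis) for the 12 tested features of chromosome 9 between 4 and 5 Mb (top) and the 18 of chromosome 7 between 13 and 15 Mb (bottom), in order of start along the chromosome (x axis). On chromosome 9 the indomethacin points lie near 0 and the aspirin points mostly between -1 and -2, while on chromosome 7 the indomethacin points stand far above the rest at features 5, 16, 17 and 18.

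The pair on chromosome 12 consisted of single-exon features of equal length, 270 nt, on the minus strand. The first (chr12:7115820-7116089) had 164 and 210 CPM with indomethacin, 33.96 and 31.36 with aspirin, and 200 and 178 in controls. The second (chr12:7353632-7353901) had 181 and 227 CPM with indomethacin, 39.9 and 39.2 with aspirin, and 218 and 194 in controls. In both, the aspirin libraries lay close together, far below indomethacin and control. The log2 differences were 2.51 ± 0.38 and 2.36 ± 0.37 (edgeR adjusted p = 0.0583 for both), and both fell with aspirin against control by 2.54 and 2.38 on the log2 scale (edgeR adjusted p = 0.00477 and 0.00494). Their equal length and parallel values mean that reads may be shared between them. These features were also called in the fit on libraries without Y reads alone (edgeR adjusted p = 0.0366 and 0.0465). The other 6 tested features between 7 and 8 Mb held no call between the drugs.

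Features lower with indomethacin than with aspirin had the opposite layout. ENSRNOG00000057702 (chr2:187162017-187181395, plus strand, 26 exons, 5426 nt) had 12.8 and 13.1 CPM with indomethacin, 45.0 and 39.3 with aspirin, and 4.93 and 8.68 in controls. Aspirin was highest, control lowest, and indomethacin in between with almost equal replicates. Indomethacin minus aspirin was -1.70 ± 0.24 (edgeR adjusted p = 0.0583), indomethacin minus control 0.93 (edgeR adjusted p = 0.131), and aspirin rose over control by 2.63 on the log2 scale (edgeR adjusted p = 0.000879). ENSRNOG00000016863 (chr1:78876205-78878779, plus strand, 1 exon, 2575 nt) had 2.06 and 1.46 CPM with indomethacin, 7.29 and 5.49 with aspirin, and 2.116 and 2.104 in controls, a log2 difference of -1.85 ± 0.27. Here the indomethacin libraries were at or below the controls. On chromosome 10 (chr10:86950557-86962578, plus strand, 4 exons, 2176 nt) the levels were 25.2 and 28.9 CPM with indomethacin, 75.5 and 68.6 with aspirin, and 16.5 and 18.3 in controls (-1.41 ± 0.21).

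Of the 9 others, the feature with the widest gap (chr8:116873721-116965396, minus strand, 16 exons, 16047 nt) had 1.31 and 1.05 CPM with indomethacin, 8.43 and 4.17 with aspirin, and 0.600 and 1.04 in controls. The longest run of exons was that of chr5:69857771-69983015 (minus strand, 51 exons), with 21.2 and 19.99 CPM with indomethacin, 51.7 and 38.6 with aspirin, and 18.6 and 16.97 in controls. At chr12:41663000-41671437 (minus strand, 5 exons) the levels were 1.48 and 2.31 CPM with indomethacin, 5.52 and 8.92 with aspirin, and 1.17 and 0.835 in controls. In each of these the indomethacin libraries were closer to the controls than to aspirin. At chr4:15710417-16130848 (minus strand, 47 exons) indomethacin lay below the controls, with 3.32 and 4.16 CPM with indomethacin, 8.35 and 8.02 with aspirin, and 4.90 and 4.81 in controls. The remaining 5 were at chr3:166743544-166746597, chr5:79001459-79008363, chr1:102110708-102191287, chr9:80150211-80167033 and chr1:101480145-101500850. Over all 12, the log2 difference ran from -2.40 to -1.13 and the edgeR adjusted p from 0.0583 to 0.0801.

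Set beside the controls, aspirin was called at 11 of the 12 higher features, all lower than control, and at 12 of the 12 lower ones, all higher than control, beside 17.8% of all features called in either direction. Indomethacin was called against control at 0 of the 24, beside 0.777% of all features. Both counts come from the libraries that chose the features. In each of the 24, both control libraries and both libraries with honokiol before indomethacin lay on the indomethacin side of both aspirin libraries. Both diclofenac libraries lay on the aspirin side of both indomethacin libraries. These are different criteria, and a library can meet both. The honokiol libraries also lay on the aspirin side of both indomethacin libraries at a number of the 24, though not at all. Among these were the called feature of chromosome 2 (49.05 and 41.72 CPM), chr9:4072823-4114974 (189.5 and 173 CPM) and chr5:69857771-69983015 (28.75 and 27.91 CPM). The called feature of chromosome 3 (9.49 and 11.6 CPM) was among those where they did not. The controls lay on that side at chr7:36643916-36660141 (54.2 and 55.4 CPM), for example. The shares of all features with these layouts were not computed, so the layouts do not group the treatments. With a Y-read term, 1 of the 24 was called between the drugs, and in the fit on libraries without Y reads 2 were, the chromosome 12 pair.

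The higher feature at which aspirin was not called against control was chr7:36643916-36660141 (minus strand, 5 exons, 2926 nt). It had 185 and 98.2 CPM with indomethacin, 39.3 and 50.7 with aspirin, and 54.2 and 55.4 in controls, with 61.5 and 54.9 in the honokiol group and 69.66 and 49.95 with diclofenac. Indomethacin alone stood above the other 4 groups, with a wide gap between its replicates. The log2 difference was 1.65 ± 0.30 (edgeR adjusted p = 0.0809), indomethacin minus control 1.37 (edgeR adjusted p = 0.0680) and aspirin minus control -0.28 (edgeR adjusted p = 0.507).

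**Figure D3:**
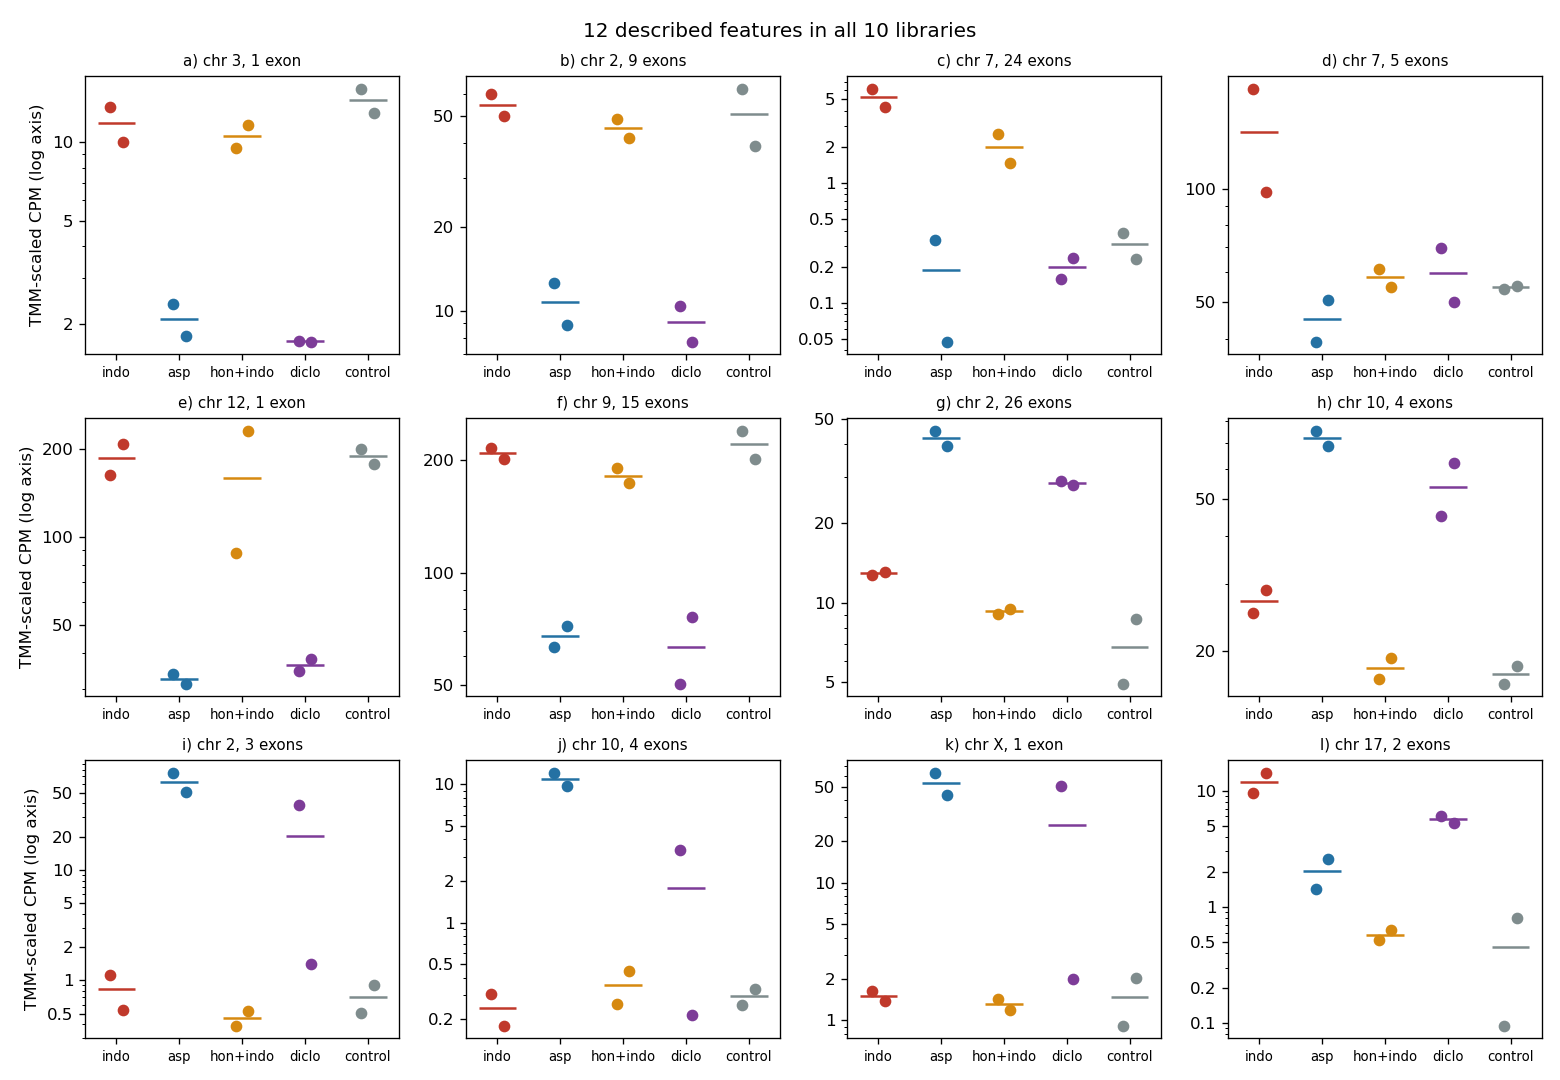
TMM-scaled CPM (y axis, log scale) of 12 described features in the 10 libraries, with 1 point per library and a bar at the mean of each group: indomethacin (indo), aspirin (asp), honokiol plus indomethacin (hon+indo), diclofenac (diclo) and control. Panels a to c are the called features, d to h others taken by the naming rule, and i to l features with some of the widest differences; in i to k only 1 of the 2 diclofenac libraries is near aspirin.

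Around the called feature of chromosome 7, 4 of the 18 tested features between 13 and 15 Mb had an adjusted p under 0.1, beside 0.202% of all features, all with far more reads in the indomethacin libraries than in those of aspirin or control. Of these, chr7:13881583-13887854 (6 exons, 789 nt) had 34 and 34 counts with indomethacin, 0 and 1 with aspirin, and 0 and 0 in controls. The feature at chr7:14821691-14828517, also of 6 exons and 789 nt, had 52 and 39 counts with indomethacin, 0 and 3 with aspirin, and 0 and 0 in controls. Both were therefore close to unread outside the indomethacin libraries among these groups, and their depth-scaled ratios of indomethacin to aspirin were 63.1 (exact 95% interval 10.95 to 2530) and 28.2 (9.34 to 139.1). Between them, chr7:14589520-14614869 (15 exons, 2305 nt) had 59 and 48 counts with indomethacin, 6 and 3 with aspirin and 11 and 9 in controls, a ratio of 11.04 to aspirin (5.60 to 24.8). The adjusted p against aspirin in edgeR was 0.0583, 0.0816 and 0.0705 for these 3, all above 0.05. Against control, indomethacin was called at the called feature and at the 2 features of 789 nt (edgeR adjusted p = 0.0139 and 0.0142), beside 0.777% of all features. The equal structure of these 2 means that they may share reads. The stretch was chosen around the called feature, which is 1 of the 4, so shares above those of all features are partly built in. With a Y-read term the adjusted p against aspirin in edgeR was 0.220, 0.295 and 0.242 for the 3 features other than the called one.

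The surrounding features did not follow. The median log2 difference of the 18 was 0.22, with 10 positive and 8 negative values. At chr7:14374358-14402010 (9 exons) the levels were 3.12 and 3.39 CPM with indomethacin, 12.3 and 6.08 with aspirin and 2.12 and 3.74 in controls, a log2 difference of -1.49 ± 0.40 (edgeR adjusted p = 0.147). At chr7:14044586-14054639 (16 exons, 2632 nt) they were 11.96 and 12.28 CPM with indomethacin, 5.74 and 5.04 with aspirin and 9.47 and 6.78 in controls, a log2 difference of 1.17 ± 0.23 (edgeR adjusted p = 0.108). In order of start, 6 features with negative differences from chr7:14138495-14189688 to chr7:14403592-14418950 were followed by the 5 last ones, which include the called feature and were all positive. With a Y-read term, chr7:14528822-14545751 among these 5 was negative (-0.21).

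Only 3 tested features had at least 1 CPM in both indomethacin libraries and under 0.25 CPM in both aspirin libraries, and 1 had the reverse. Besides 2 of the chromosome 7 features above, the first set held chr10:53713938-53848347 (plus strand, 126 exons, 18143 nt). It had 87 and 42 counts with indomethacin, 1 and 0 with aspirin, and 0 in every control and every honokiol library (edgeR adjusted p = 0.0583 against aspirin, 0.220 with a Y-read term, and 0.0140 against control). The reverse case was chr3:148417993-148428494 (minus strand, 10 exons, 3130 nt), with 4 and 5 counts with indomethacin, 42 and 43 with aspirin, and 1 and 3 in controls, a log2 difference of -3.37 ± 0.78 (edgeR adjusted p = 0.137). It rose over control with aspirin (edgeR adjusted p = 0.0135).

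The widest differences were not the most certain. With Y features left aside and the same floor on the mean log2 CPM, the 8 features with the lowest log2 differences ran from -6.25 to -3.64, chosen after their values were seen. At chr2:239415046-239439568 (3 exons, 5374 nt) the levels were 1.12 and 0.539 CPM with indomethacin, 75.7 and 50.1 with aspirin, and 0.505 and 0.902 in controls. At chr10:84182118-84195796 (4 exons, 2138 nt) they were 0.307 and 0.180 CPM with indomethacin, 12.2 and 9.73 with aspirin, and 0.253 and 0.334 in controls. A single-exon feature of the X chromosome (chrX:95059337-95062132, 2796 nt) had 1.65 and 1.39 CPM with indomethacin, 63.1 and 43.3 with aspirin, and 0.916 and 2.04 in controls. In these, the indomethacin values overlapped with those of control, and both aspirin libraries were more than an order of magnitude above. The adjusted p in edgeR was 0.161, 0.137 and 0.182.

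Beside aspirin, 1 other library was high here, diclofenac replicate 1. It had 39.0, 3.34 and 50.6 CPM at these 3 features, whereas diclofenac replicate 2 had 1.41, 0.214 and 2 CPM. At all 8 features diclofenac replicate 1 was nearer to aspirin than to indomethacin and replicate 2 nearer to indomethacin, with a ratio between the replicates from 11.3 to 112. The control and honokiol libraries were nearer to indomethacin at all 8. Diclofenac replicate 1 was not near aspirin everywhere. At chr12:35905358-35906382, which had one of the highest log2 differences, it had 77.1 CPM and diclofenac replicate 2 had 0.381 CPM. The levels there were 4.69 and 3.24 CPM with indomethacin and 0.883 and 0.213 CPM with aspirin. In the fit on the indomethacin and aspirin libraries alone, 7 of the 8 were called, beside 57 of 15801 features. Of the 6 features with the highest differences, 3 were called in that fit. The difference between the diclofenac replicates enters the estimated spread of the fit over all libraries and not that of the 2 groups. Its part in the calls was not tested. Fits without 1 of the diclofenac libraries assume that the lone one varies like the other groups. At chr2:239415046-239439568 the adjusted p in edgeR was 0.000353 in the fit of the 2 groups. Over all features, the count of calls was 56 without diclofenac replicate 1 and 55 without replicate 2. Aspirin was called over control at 5 of the 8 and indomethacin at 0 of the 8, beside 9.5% and 0.752% of all features called higher, and the 8 were chosen for their low differences from the same aspirin libraries. With a Y-read term the adjusted p in edgeR between the drugs ran from 0.400 to 0.508 for the 8. Whether the 2 diclofenac libraries carry the right labels was not tested.

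The other 5 of this set included chr1:221792221-221908049 (30 exons, 7620 nt), with 4 and 10 counts with indomethacin against 395 and 354 with aspirin. Also among them were chr14:42401706-42431480 (10 exons), with 10 and 12 counts with indomethacin against 386 and 386 with aspirin, and chr4:40161285-40169564 (5 exons, 666 nt), with 11 and 22 counts with indomethacin against 348 and 310 with aspirin. In all 3 no library of one drug came near those of the other. Among the 6 features with the highest differences, from 2.54 to 3.34, the indomethacin replicates often disagreed. At chr3:16749942-16753987 (8 exons, 349 nt) they had 12.6 and 1.39 CPM, against 0.883 and 1.09 with aspirin and 1.04 and 0.768 in controls. A pair on chromosome 17 had closer replicates: chr17:31706245-31706523 (1 exon, 279 nt) had 13.22 and 13.97 CPM with indomethacin, 1.62 and 1.09 with aspirin and 0.853 and 2.94 in controls. Its neighbour at chr17:31779334-31780120 (2 exons, 396 nt) had 9.48 and 14.3 CPM with indomethacin, 1.44 and 2.60 with aspirin and 0.0947 and 0.802 in controls. The neighbour rose over control with both drugs, by 4.74 with indomethacin (edgeR adjusted p = 0.00959) and by 2.20 with aspirin (edgeR adjusted p = 0.0397) on the log2 scale, and between the drugs its adjusted p in edgeR was 0.135.

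Because genes could not be grouped by function, neighbouring features were grouped by position, in windows of 1 Mb with at least 6 tested features. The 1022 windows had a median log2 difference of 0.04, and 90% of them lay between -0.41 and 0.46. Medians above 1 occurred in 11 windows and below -1 in 7. These were picked by their values and were not tested. The highest were on chromosome 3 from 16 to 17 Mb (1.59), the chromosome 9 window described above (1.48), and chromosome 4 from 102 to 103 Mb (1.47). The lowest were on chromosome 14 from 46 to 47 Mb (-1.64), chromosome 1 from 11 to 12 Mb (-1.59) and chromosome 6 from 139 to 140 Mb (-1.37). With a Y-read term the medians of these 6 windows were 0.99, 1.46, 0.86, -1.81, -2.03 and -2.00.

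**Figure D4:**
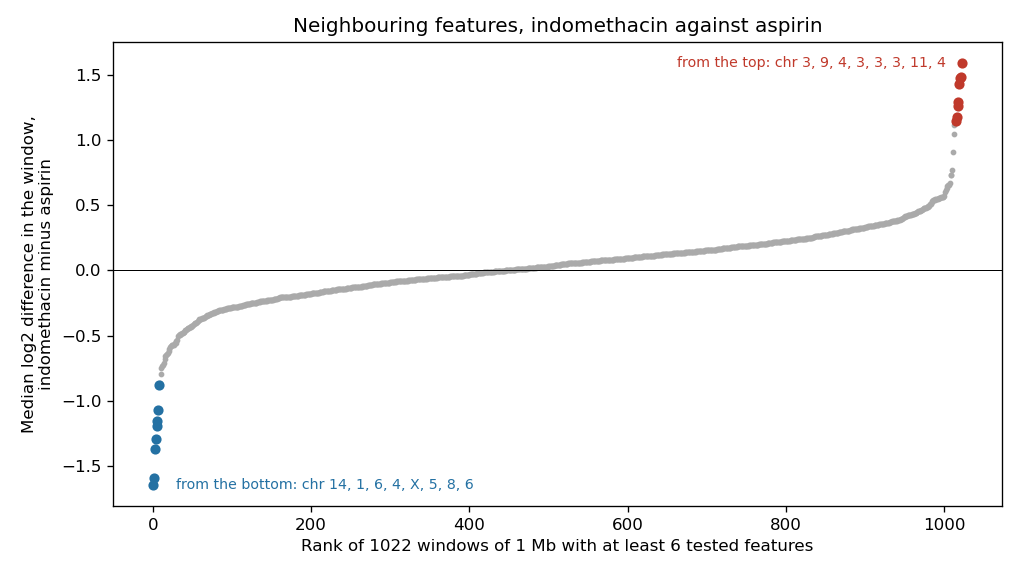
Median log2 difference, indomethacin minus aspirin (y axis), of each of 1022 windows of 1 Mb with at least 6 tested features, in rank order (x axis). The 8 highest (red) run from 1.14 to 1.59 and the 8 lowest (blue) from -1.64 to -0.88, with their chromosomes named in order of rank.

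Several of these windows were filled with small features of at most 4 exons and under 550 nt. On chromosome 3 from 16 to 21 Mb, 37 of 43 tested features were of this kind, 38 of the 43 had a positive log2 difference and the median was 1.17. Their summed level was 141 and 64.7 CPM with indomethacin, 40.6 and 126 with aspirin, and 17.2 and 28.8 in controls, so the sums overlapped between the drugs although most single features were higher with indomethacin. On chromosome 6, 28 of 29 tested features from 140 to 143 Mb were positive, with a median of 1.13 and sums of 67.5 and 64.2 CPM with indomethacin, 26.8 and 21.8 with aspirin, and 9.76 and 14.4 in controls. Directly beside them, from 139 to 140 Mb, 20 of 22 were negative, with a median of -1.37 and sums of 44.4 and 14.7 CPM with indomethacin, 25.7 and 77.6 with aspirin, and 10.04 and 11.02 in controls. On chromosome 4 from 102 to 103 Mb, 10 of 11 were positive, and the sums were 15.95 and 11.38 CPM with indomethacin, 5.30 and 7.83 with aspirin, and 3.70 and 2.30 in controls. None of the features in these 4 stretches was called between the drugs by edgeR, while 39 of the 105 had an unadjusted p under 0.05, beside 20.1% of all features. In the stretch of chromosome 6 from 139 to 140 Mb alone these were 4 of 22, and its sums overlapped between the drugs. The 4 stretches were picked by their log2 differences, so a share above that of all features is partly built in. The medians of adjacent stretches thus had opposite signs, and libraries of the same drug differed by up to several fold in the sums.

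The windows of chromosomes 14 and 1 held features of very high abundance. At chr14:46523594-46529375 (minus strand, 7 exons, 1092 nt), 0.407% and 0.470% of all counts lay with indomethacin, 3.31% and 2.62% with aspirin, and 0.0525% and 0.109% in controls. The log2 difference was -2.55 ± 0.92 (edgeR adjusted p = 0.199), and aspirin rose over control (edgeR adjusted p = 0.0188). At chr1:11963836-11968939 (plus strand, 5 exons, 1140 nt) the shares were 0.333% and 0.709% with indomethacin, 5.44% and 4.30% with aspirin, and 0.0650% and 0.0360% in controls, a log2 difference of -3.09 ± 1.52 (edgeR adjusted p = 0.2997). In both, aspirin exceeded indomethacin, and indomethacin exceeded control, in every library. Here too the diclofenac replicates disagreed: 72900 and 8182 CPM summed over the chromosome 14 window, and 67010 and 1778 over that of chromosome 1. Of the 20 tested features of the chromosome 14 window, 13 were single-exon features under 550 nt, and 18 had negative log2 differences. Reads of features that overlap longer ones cannot be told apart from theirs.

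Over all features, the log2 difference fell with exonic length. In 5 classes of about equal size, from the shortest to the longest features, its median was 0.27, 0.13, 0.05, -0.05 and -0.23. Against control the medians ran from -0.23 to 0.24 across the same classes with aspirin, and from -0.03 to 0.01 with indomethacin. In the shortest class 38.4% of features had both indomethacin libraries above both aspirin libraries and 15.2% had them below. In the longest class these shares were 16.2% and 42.0%. With the length trend of each library removed, the medians lay between 0.02 and 0.07, and with a Y-read term they ran from 0.15 to -0.12. Single libraries moved the trend: the medians ran from 0.22 to -0.10 without aspirin replicate 1, from 0.39 to -0.32 without aspirin replicate 2, and from 0.17 to -0.17 without indomethacin replicate 1. The part of the length trend in the results on single features was not tested beyond the fit with the trend removed. In that fit all 25 features taken by the naming rule kept their direction. Their log2 differences were at least 1.13 in size and thus large beside the class medians. A reversal was hardly possible, and the kept directions do not show how large the part of the trend was.

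**Figure D5:**
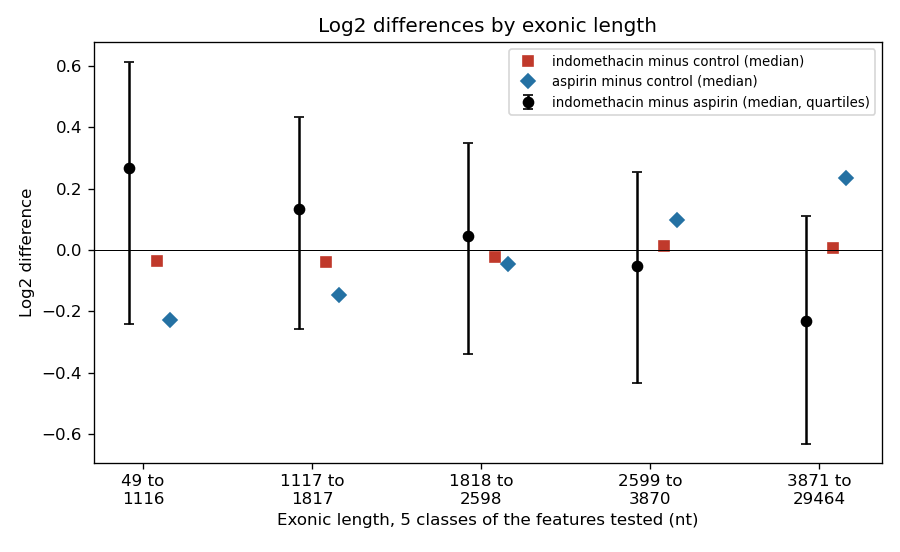
Log2 differences (y axis) in 5 classes of the tested features by exonic length (x axis, nt). Black points and bars are medians and quartiles of indomethacin minus aspirin, and run down from 0.27 to -0.23; red squares and blue diamonds are medians of each drug minus control, of which the blue ones change with length.

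The total of the most abundant features did not separate the drugs. The 10 most abundant features took 63.7% and 56.7% of counts with indomethacin, 56.8% and 57.7% with aspirin, and 60.3% and 62.8% in controls. The leading one outside the mitochondrial genome (chr9:15266699-15274917, minus strand, 9 exons, 1371 nt) took 18.1% and 22.9% with indomethacin, 17.3% and 19.6% with aspirin and 11.3% and 17.4% in controls. These shares overlapped between the drugs. Its TMM-scaled CPM did not, with 220500 and 203500 with indomethacin and 151700 and 183200 with aspirin (log2 difference 0.34 ± 0.39, edgeR adjusted p = 0.627). Mitochondrial features took 32.4% and 21.7% of counts with indomethacin, 23.8% and 22.8% with aspirin, and 35.1% and 36.2% in controls. Most of these counts lay at the ribosomal RNA positions of that genome, 68-1025 and 1094-2664. They took 29.7% and 19.3% with indomethacin, 21.2% and 20.2% with aspirin, and 32.3% and 32.4% in controls. The share is therefore mainly one of ribosomal RNA left in depleted libraries. In the indomethacin pair the library with Y reads had the larger share, and the aspirin libraries lay between the pair. Of the 23 mitochondrial features tested, 0 were called between the drugs by edgeR and 4 (17.4%) had an unadjusted p under 0.05, near the 20.1% of all features (smallest edgeR adjusted p = 0.198). Among the 15 over 100 nt, 8 were higher and 7 lower with indomethacin, with log2 differences from -0.88 to 0.80.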

How the data were processed

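The deposited files hold raw whole-number counts per Ensembl gene, 1 library per file and 32623 features each. Per the file headers they are featureCounts-style tables. The submitters' processing notes name HISAT2 2.1.0 and featureCounts, with cutadapt 1.16 and FastQC 0.11.7 among the earlier steps, and also DESeq2. Per the labels' protocols, the libraries were stranded, paired-end and depleted of ribosomal RNA. Build, strand setting and handling of multiply matching reads are not named in the sources used here, so reads of overlapping, antisense or near-identical features cannot be told apart. Exon numbers count the distinct exons listed for a feature.

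Library totals ran from 23892226 to 44977459 counts. All 10 libraries entered 1 fit with group as the only term: edgeR 4.0.16 in R 4.3.3, TMM factors, filterByExpr (minimum count 10, minimum total 15), robust quasi-likelihood F test, 5 residual degrees of freedom. The threshold was an adjusted p (Benjamini-Hochberg) under 0.05, and the standard error was the log2 difference divided by the square root of F. CPM and shares of counts were computed here from the deposited counts, and log2 values per library used a pseudocount of 0.1 CPM in a plot. Count ratios carry exact 95% intervals for counting error only. DESeq2 1.42.0 was an alternative. The procedure was tested on simulated data.

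Of the 32623 identifiers, 0 matched the reference symbols, so the 31 gene lists and 20 marker lists could not be applied. The naming rule takes every called feature, and 12 features in each direction by unadjusted p with a mean log2 CPM of 1 or more and without overlap, and was used without its condition on symbols; other features, windows and the plot's choice were taken after their values were seen. Members and lists were chosen with earlier results of these data known. Over 1000 counts on the Y features defined a library with Y reads.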

Additional observations from a re-analysis of the deposited data

How the results depend on the processing

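For indomethacin against aspirin, the 3 calls became 439 with DESeq2, 1414 without a low-count filter, 57 with only the 2 groups, 5 with the length trend removed (chosen after seeing the data), and 1 with a Y-read term. Libraries without Y reads alone gave 3 calls, of which 0 were among the first 3. Of the 439, 40 were among the 57. Among the 439, 437 did not overlap between the drugs. Of all features tested by edgeR, 28.3% were higher with indomethacin without overlap and 26.2% lower. A call between groups of 2 libraries favours features without overlap, so the 437 are no support for the calls. Leaving out each library in turn gave 2 to 570 calls. For indomethacin against control, 127 calls became 376 with DESeq2, 834 without a filter, 262 with only the 2 groups, 64 against a 1.5-fold change and 39 in libraries without Y reads, and 1 to 200 with a library left out. For aspirin against control, 2903 became 1759 with only the 2 groups, 683 with a Y-read term, 416 against a 1.5-fold change and 184 in libraries without Y reads, and 462 to 3606 with a library left out. Leaving out 1 library leaves its group with 1, assumed to vary like the others. For the 47 single features recomputed (those of the naming rule, the widest differences, those read with 1 drug only, and some of chromosome 7 and the lowest windows), 939 alternative values gave 0 changes of direction, 9 lost and 204 gained calls. Most of the 47 were chosen for clear differences, so few reversals could occur. Other features given by value were not counted, and among these chr7:14528822-14545751 kept its direction in 18 of 20 alternatives. Of 320 window values (chosen after seeing the data), 1 changed sign: chromosome 11 from 85 to 86 Mb, 1.18 and -0.62 with a stricter filter; the cause was not tested. Replicate numbers did not pair the libraries (correlation of same-numbered deviations -0.167 between indomethacin and aspirin, -0.263 to 0.298 over all pairs of groups), and a fit with the replicate block gave 3, 123 and 2106 calls for the 3 comparisons. Alternatives for gene lists were not run, since no list could be applied. With 2 libraries a group, small differences could not be detected.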

Other observations

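At the called feature of chromosome 3, the diclofenac libraries had 1.72 and 1.71 CPM, close to aspirin, and the libraries with honokiol before indomethacin 9.49 and 11.6 CPM. At that of chromosome 2 the diclofenac libraries had 10.4 and 7.74 CPM and the honokiol libraries 49.1 and 41.7 CPM. Summed over the 12 features of chromosome 9, the level was 351 and 523 CPM with diclofenac and 1073 and 972 CPM with honokiol before indomethacin. At the chromosome 12 pair the honokiol libraries disagreed, with 88.3 and 232 CPM at the first and 97.3 and 246 CPM at the second, while diclofenac had 34.6 and 38.0, and 43.2 and 46.9 CPM.

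The feature of chromosome 10 with 126 exons had 2.43 and 1.08 CPM with indomethacin, 0 in both honokiol libraries, and 0.0454 and 0.0714 CPM with diclofenac. On the X chromosome from 74 to 75 Mb, 10 of 11 tested features were lower with indomethacin than with aspirin. Their summed level was 27.9 and 63.1 CPM with indomethacin, 145 and 75.1 with aspirin, and 20.2 and 78.4 in controls, and in the indomethacin and control pairs the lower value belongs to the library with Y reads.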
